A study of Mus musculus with 6 samples.

Results

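Adenylyl cyclases, the subunits of protein kinase A (PKA) and phosphodiesterases were compared between *Hlx* transgenic mice and wild-type littermates in the inguinal white fat depot (iWAT). The genes were taken from the expression table by a rule on names. The symbol had to start with Adcy, Prkac or Prkar, or with Pde and a digit, with *Pde5a* left out. This group of genes was chosen with earlier results of these data known. The rule found 44 rows, which carry 43 symbols, among 19445 gene loci, since *Pde4dip* is listed on 2 rows. It also takes in *Adcyap1* and *Adcyap1r1*, which encode the peptide PACAP and its receptor. The products of *Pde6d*, *Pde12*, *Pde4dip*, *Pde6g* and *Pde6h*, also among the rows, do not themselves hydrolyse cyclic nucleotides. The transgene places *Hlx* cDNA behind the *aP2* (*Fabp4*) promoter, which drives expression in adipocytes, and it was injected into embryos of a C57BL/6 and SJL hybrid background whose offspring were crossed back to C57BL/6. RNA-Seq was done on 3 transgenic and 3 wild-type mice, all labelled as males of 12 weeks and otherwise untreated, with 1 library per mouse. FPKM is read density corrected for transcript length and library size, and *Hlx* had 96.2 ± 15.3 of it in the transgenic and 7.45 ± 0.637 in the wild-type group (SD, n = 3 each).

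*Xist*, the RNA of the inactive X chromosome, was read at 20.2 to 33.6 FPKM in the 6 mice, and 28 Y-linked loci had 0 FPKM in each of them, which goes against the label male in both genotypes alike. Total FPKM per mouse ranged from 466059 to 542096, and without read counts the absolute depth is unknown. Relative depth, read from the steps between low values, was 0.692 to 1.14 in transgenic and 0.943 to 1.41 in wild-type mice, with wild-type mouse 3 set to 1, but just 12.5% to 15.3% of the low values lay on such a step, so these depths are rough. The summed FPKM of 7 brown adipocyte markers was 6127 to 7930 in transgenic and 611 to 1050.5 in wild-type mice, and 6 of the 7 markers were called higher. Markers of white or common adipocytes summed to 28406 to 33565 FPKM against 25760 to 32753 FPKM, most of it *Fabp4*, and without *Fabp4* to 3845 to 4488 FPKM against 6463 to 9213 FPKM, with *Adipoq* and *Retn* called lower and 0 of 7 called higher. *Myh4* of skeletal muscle was the sole gene of the 10 marker lists with 0 FPKM in any mouse. Macrophage markers summed to 598 to 878 FPKM in transgenic and 1085 to 1484 FPKM in wild-type mice, with 4 of 7 called lower, and fibroblast markers to 1117 to 1417 FPKM and 1679 to 1944 FPKM, with 1 of 6 called lower. Lymphocyte markers summed to 304 to 415 FPKM and 408 to 585 FPKM, with 1 of 7 called lower. The largest part was *Cd79a* (139 to 169 FPKM and 166 to 233 FPKM), whose locus is merged with *Arhgef1*. Endothelial markers summed to 166 to 175 FPKM and 162 to 169 FPKM, with 2 of 7 called higher and 1 lower. Markers of smooth muscle, epithelium and nerve overlapped between genotypes with none called. The 7 skeletal muscle markers other than *Tnnt3*, whose locus is merged with the leukocyte gene *Lsp1*, summed to 91.0, 649.7 and 129.8 FPKM in transgenic mice 1, 2 and 3, against 7.20, 138 and 38.2 FPKM in wild-type mice, with overlap and none called. Without transgenic mouse 2, the highest of them, 7 of the genes described here were called higher and 1 lower. In that fit transgenic mice 1 and 3 remain above wild-type mice 1 and 3, and below wild-type mouse 2, in these muscle markers. The part of these cell types in the differences below was not tested, and in whole tissue fewer cells of a type and less RNA per cell cannot be told apart.

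Adenylyl cyclases make cyclic AMP (cAMP) from ATP when receptors such as the β-adrenergic receptors activate the stimulatory G protein. Cyclic AMP binds the regulatory subunits of PKA and releases the catalytic subunits, which in fat cells phosphorylate lipases and lipid droplet proteins to start lipolysis and, in brown and beige adipocytes, switch on genes of heat production. Phosphodiesterases break cyclic nucleotides down and so limit how long and where in the cell the signal lasts. Cyclases, PKA subunits and phosphodiesterases each come as several isoforms with their own regulators and locations.

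Transgenic iWAT had higher RNA levels of 2 membrane cyclases (*Adcy3*, *Adcy9*), 1 catalytic and 1 regulatory subunit of PKA (*Prkaca*, *Prkar2b*) and 3 cAMP-specific phosphodiesterases (*Pde8a*, *Pde4a*, *Pde4d*), and lower levels of the cyclase *Adcy5* and the phosphodiesterase *Pde1b*. Among the genes that rose, the ratio of mean FPKM lay between 1.67 for *Adcy3* and 2.23 for *Pde4a*. *Adcy5* was at 0.449 of its wild-type level. The test was limma on log2(FPKM + 1) with p adjusted by Benjamini-Hochberg over 11692 loci, those whose mean FPKM exceeded 1 in either genotype, and a gene was called at an adjusted p under 0.05. Fold changes below are on that log2 scale, on which changes at low FPKM come out too small. Of the 44 rows, 30 passed the expression filter, none of them through 1 genotype alone. Of these 30, 7 were called higher (23.3%, against 11.6% of all tested loci), 2 were called lower (6.67%, against 7.03% of all tested loci) and 21 were not called. In either direction, 18.6% of all tested loci were called. Every transgenic mouse lay above every wild-type mouse at 14 of the 30 rows (46.7%, against 22.8% of all tested loci) and below at 3 of the 30 (against 20.1%). The median log2 fold change was 0.13 over the 30 rows and -0.01 over all tested loci. With 3 mice against 3, the exact two-sided permutation test of a single gene cannot go below p = 0.1.

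**Figure D1:**
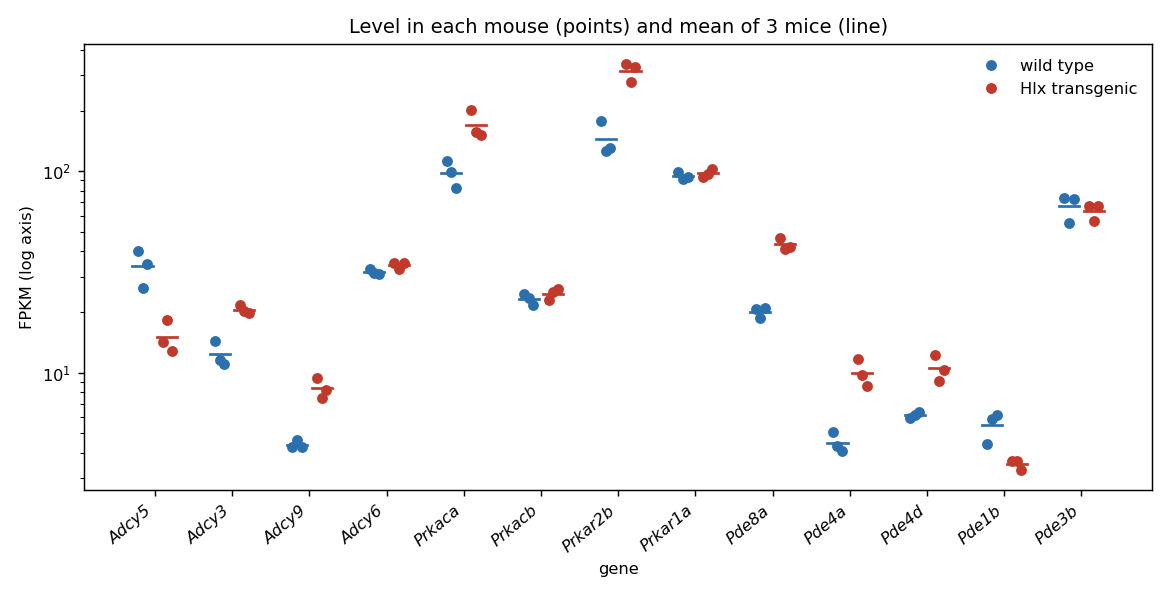
FPKM on a log axis of 13 cyclase, PKA and phosphodiesterase genes in each of 3 wild-type (blue) and 3 transgenic (red) mice, with a line at each mean. The red and blue points are apart for the 9 called genes, from *Prkar2b* at up to 339 FPKM down to *Pde1b*, and mix for *Prkacb*, *Prkar1a* and *Pde3b*.

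**Figure D2:**
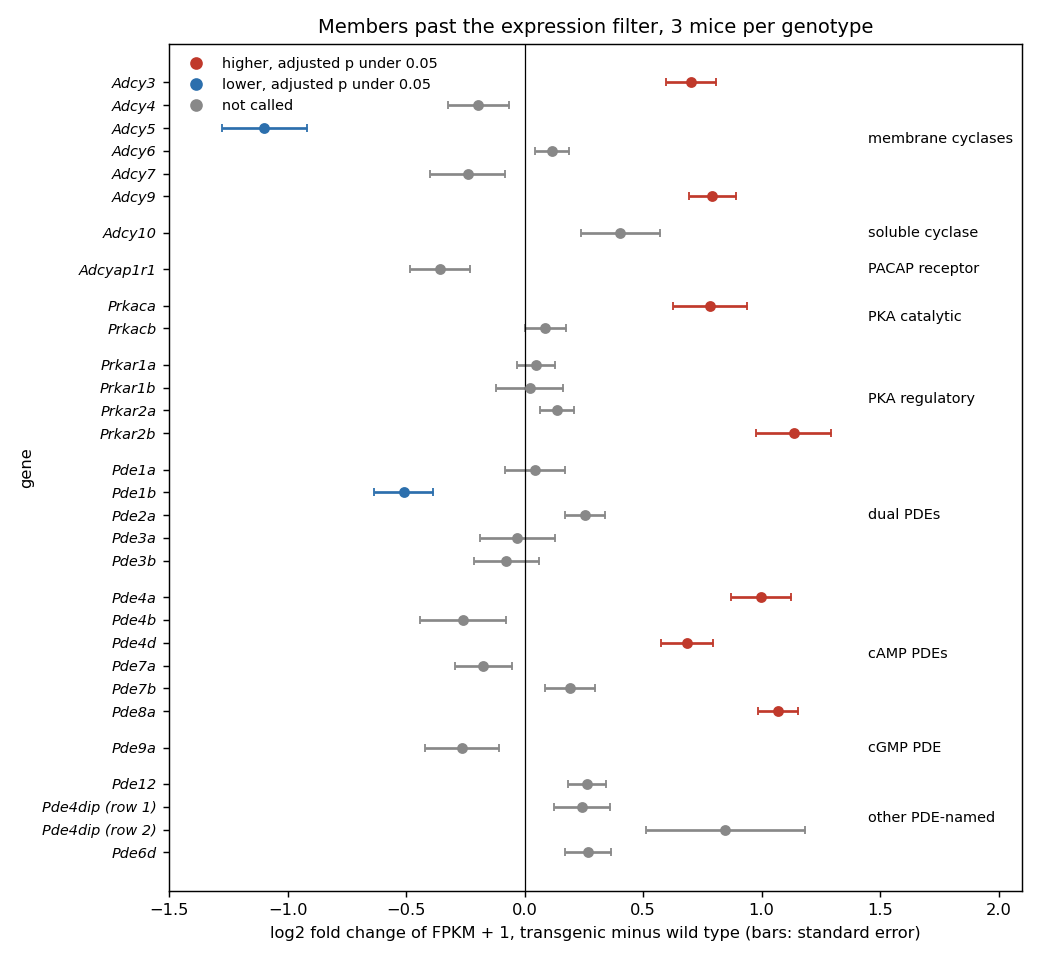
The log2 fold change of FPKM + 1, transgenic minus wild type, with its standard error for the 30 rows past the expression filter, grouped by role. The 7 red points (called higher) lie between 0.69 and 1.13, the 2 blue points (called lower) are *Adcy5* and *Pde1b*, and the grey points were not called.

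Of the 9 membrane cyclases, 6 passed the filter, and 2 of them rose and 1 fell, against 11.6% and 7.03% of all tested loci. *Adcy3* (chr12:4133103-4213525), which is activated through the stimulatory G protein, was at 21.6, 20.3 and 19.8 FPKM in transgenic mice 1, 2 and 3 and at 14.4, 11.5 and 11.1 FPKM in wild-type mice 1, 2 and 3. The genotypes did not overlap, and the log2 fold change was 0.70 (SE, its standard error, 0.11, adjusted p = 0.00636 by limma). *Adcy3* shares 1380 exonic bases, 22.1% of its exonic length, with *Cenpo* on the opposite strand, and reads of the pair cannot be told apart in libraries that do not mark strand. *Cenpo* itself was at 2.03 ± 0.274 and 1.86 ± 0.256 FPKM (SD, n = 3 each, transgenic and wild type), and its log2 fold change was 0.09 (limma adjusted p = 0.643).

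*Adcy9* (chr16:4287529-4420498), a widely expressed cyclase that is poorly responsive to forskolin, was at 9.38, 7.49 and 8.24 FPKM in transgenic mice and at 4.27, 4.65 and 4.27 FPKM in wild-type mice. The lowest transgenic value was above the highest wild-type value, and the log2 fold change was 0.79 (SE 0.10, adjusted p = 0.00292 by limma). *Adcy5* (chr16:35154877-35305738), a cyclase inhibited by calcium and by the inhibitory G protein, was at 14.3, 18.2 and 12.9 FPKM in transgenic mice and at 40.1, 26.2 and 34.7 FPKM in wild-type mice. Both genotypes varied, but each transgenic mouse was below each wild-type mouse, and the log2 fold change was -1.10 (SE 0.18, adjusted p = 0.00842 by limma). The call of *Adcy5* was lost when all 19445 loci were tested (adjusted p = 0.0542, limma).

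*Adcy6*, the closest relative of *Adcy5*, had the highest mean level of the transgenic cyclases, at 35.1, 32.7 and 35.2 FPKM in transgenic mice, against 32.7, 31.1 and 31.0 FPKM in wild-type mice. The genotypes stood just apart, yet the log2 fold change of 0.12 (95% interval -0.05 to 0.28) was not called (limma adjusted p = 0.286). *Adcy4* and *Adcy7* were not called either, with log2 fold changes of -0.19 and -0.24 and overlapping genotypes. *Adcy10*, the soluble cyclase that responds to bicarbonate, was at 2.11, 3.17 and 2.07 FPKM in transgenic mice, against 1.22, 1.90 and 1.66 FPKM in wild-type mice, and its log2 fold change of 0.40 was not called (limma adjusted p = 0.129). The *Adcy10* locus overlaps that of *Brp44*, and whether they share exonic bases was not examined. *Adcyap1r1*, the PACAP receptor, which itself couples to adenylyl cyclase, was at 1.58, 1.77 and 2.38 FPKM in transgenic mice, against 2.71, 2.59 and 2.81 FPKM in wild-type mice. Its log2 fold change of -0.36 was not called (limma adjusted p = 0.0916), although the genotypes did not overlap.

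The summed FPKM of the 9 membrane cyclases was 92.9, 95.1 and 92.5 in transgenic and 106.9, 92.2 and 100.4 in wild-type mice, so the genotypes overlapped while the make-up of the sum differed. *Adcy5* made up 33.5% ± 4.65 (SD, n = 3) of the sum in wild-type and 16.1% ± 2.68 (SD, n = 3) in transgenic mice. *Adcy3* made up 12.3% ± 1.21 and 22.0% ± 1.10, and *Adcy9* 4.43% ± 0.549 and 8.96% ± 1.11, in the same order. *Adcy6* had 31.7% ± 1.73 of the sum in wild-type and 36.7% ± 2.00 in transgenic mice. In wild-type iWAT *Adcy5* and *Adcy6* were thus at like levels, at 33.7 ± 7.02 and 31.6 ± 0.934 FPKM, whereas in transgenic iWAT *Adcy6* (34.3 ± 1.38 FPKM) led, followed by *Adcy3* (20.6 ± 0.942 FPKM) and *Adcy5* (15.1 ± 2.74 FPKM). These sums and shares are descriptions with no test.

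PKA is a complex of regulatory and catalytic subunits, and the 6 subunit genes all passed the filter. *Prkar2b* (chr12:31958476-32061296) encodes RIIβ, the regulatory subunit typical of fat and brain, and had the highest level of the 44 rows. It was at 339, 278 and 331 FPKM in transgenic mice, against 177, 125 and 131 FPKM in wild-type mice, with no overlap. The log2 fold change was 1.13 (SE 0.16, adjusted p = 0.00442 by limma). *Prkaca* (chr8:83972993-83996443), the main catalytic subunit gene, was at 202, 157 and 151 FPKM in transgenic mice, against 113, 99.6 and 82.6 FPKM in wild-type mice. The genotypes did not overlap, and the log2 fold change was 0.78 (SE 0.16, adjusted p = 0.0168 by limma). The call of *Prkaca* was lost without wild-type mouse 3 (limma adjusted p = 0.0522) and when all loci were tested (limma adjusted p = 0.0724).

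The other PKA genes were not called. *Prkar1a*, the widely expressed RIα subunit, was at 93.7, 97.3 and 103 FPKM in transgenic mice, against 98.6, 91.7 and 93.4 FPKM in wild-type mice, and its log2 fold change was 0.05 (95% interval -0.14 to 0.24, limma adjusted p = 0.687). *Prkacb*, the other catalytic subunit gene, had 24.7 ± 1.61 and 23.2 ± 1.56 FPKM (SD, n = 3, transgenic and wild type), and *Prkar2a* had 10.5 ± 0.417 and 9.46 ± 0.317 FPKM. *Prkar1b*, best known from neurons, was near 2.3 FPKM in both genotypes.

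Catalytic subunit FPKM summed to 194.5 ± 26.1 in transgenic and 121.5 ± 16.7 in wild-type mice (SD, n = 3), a ratio of 1.60. Regulatory subunit FPKM summed to 427 ± 33.9 and 251 ± 32.9, a ratio of 1.70. The genotypes did not overlap in either sum. Their quotient, catalytic over regulatory, was 0.457 ± 0.0543 in transgenic and 0.486 ± 0.0497 in wild-type mice, and there the genotypes overlapped. The share of *Prkar2b* in the regulatory sum was 57.3% ± 3.60 in wild-type and 74.0% ± 2.23 in transgenic mice, and that of *Prkar1a* was 38.0% ± 3.31 and 23.0% ± 2.05. *Prkaca* held 80.8% ± 1.39 of the catalytic sum in wild-type and 87.1% ± 2.38 in transgenic mice.

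**Figure D3:**
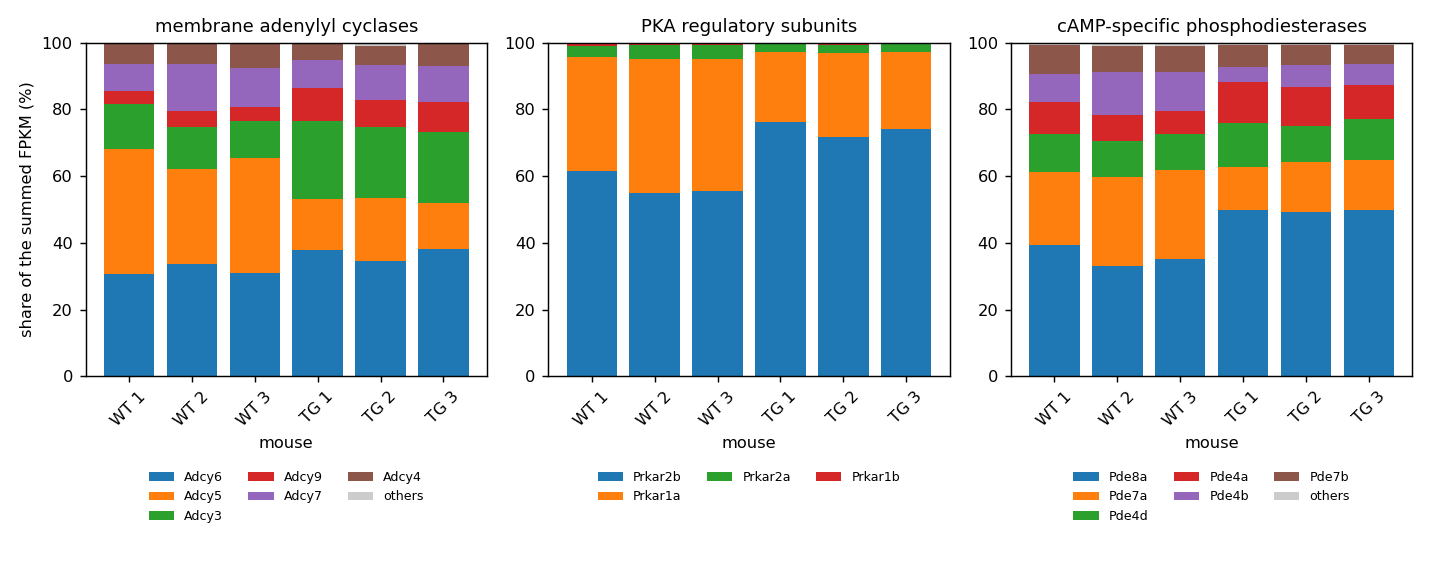
Share in percent of each isoform in the summed FPKM of its family, for membrane cyclases, PKA regulatory subunits and cAMP-specific phosphodiesterases, in 3 wild-type and 3 transgenic mice. The *Adcy5* band is narrower, and the *Prkar2b* and *Pde8a* bands wider, in each transgenic mouse than in each wild-type mouse.

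The Pde names cover 26 rows, of which 16 were tested, and 3 rose (18.8%, against 11.6% of all tested loci) and 1 fell (6.25%, against 7.03%). All 3 that rose encode phosphodiesterases specific for cAMP, a class with 6 tested genes. *Pde8a* (chr7:81213596-81334533) encodes an enzyme of high affinity for cAMP that is insensitive to the common inhibitor IBMX. It was at 46.8, 41.1 and 42.0 FPKM in transgenic mice, against 20.7, 18.7 and 20.9 FPKM in wild-type mice, far apart against the spread within a genotype, and the log2 fold change was 1.07 (SE 0.09, adjusted p = 0.000732 by limma).

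*Pde4a* (chr9:21165714-21213248) and *Pde4d* (chr13:108449948-109953461) belong to the rolipram-sensitive PDE4 enzymes, which PKA phosphorylates and thereby activates. *Pde4a* was at 11.7, 9.71 and 8.58 FPKM in transgenic mice, against 5.06, 4.33 and 4.06 FPKM in wild-type mice, and its log2 fold change was 1.00 (SE 0.13, adjusted p = 0.00326 by limma). *Pde4d* was at 12.3, 9.13 and 10.4 FPKM in transgenic mice, against 5.97, 6.16 and 6.35 FPKM in wild-type mice, with a log2 fold change of 0.69 (SE 0.11, adjusted p = 0.00771 by limma). Neither gene overlapped between genotypes, and both were highest in transgenic mouse 1. *Pde4b*, the third PDE4 gene past the filter, was at 4.99 ± 0.769 FPKM in transgenic mice, against 6.25 ± 1.56 FPKM in wild-type mice (SD, n = 3), with overlap and a log2 fold change of -0.26 (limma adjusted p = 0.341). *Pde7a* (log2 fold change -0.17) and *Pde7b* (0.19), both cAMP-specific and insensitive to rolipram, were not called.

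Of the 5 tested phosphodiesterases that split both cAMP and cGMP, 0 rose (against 11.6% of all tested loci) and 1 fell (against 7.03%). *Pde1b* (chr15:103503034-103530052), an enzyme activated by calcium and calmodulin, was at 3.64, 3.64 and 3.29 FPKM in transgenic mice, against 4.41, 5.89 and 6.17 FPKM in wild-type mice. The genotypes did not overlap, and the log2 fold change was -0.51 (SE 0.12, adjusted p = 0.0322 by limma). This call was lost in 7 of 14 alternative settings, among them without transgenic mouse 1, 2 or 3 and without wild-type mouse 2 or 3, with adjusted p up to 0.103 (limma). *Pde3b*, the enzyme through which insulin restrains lipolysis, had the highest level of the phosphodiesterases, at 67.2, 56.4 and 67.0 FPKM in transgenic mice, against 73.8, 55.4 and 73.0 FPKM in wild-type mice. Its values overlapped widely, and the log2 fold change was -0.08 (95% interval -0.40 to 0.24, limma adjusted p = 0.712). *Pde2a*, which cGMP stimulates, was at 22.7 ± 1.13 FPKM in transgenic mice, against 18.9 ± 1.54 FPKM in wild-type mice (SD, n = 3), apart but not called (log2 fold change 0.25, limma adjusted p = 0.0805). *Pde1a* and *Pde3a* had log2 fold changes of 0.04 and -0.03, whose sign turned in some settings.

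*Pde9a*, the 1 tested phosphodiesterase specific for cGMP, was at 1.07, 1.30 and 1.86 FPKM in transgenic mice, against 2.07, 2.02 and 1.55 FPKM in wild-type mice, with overlap and no call (log2 fold change -0.26, limma adjusted p = 0.264). *Pde6d*, a carrier of prenylated proteins, was at 33.1, 27.1 and 29.4 FPKM in transgenic mice, against 23.9, 26.6 and 23.3 FPKM in wild-type mice, where the groups stood apart without a call (log2 fold change 0.27, limma adjusted p = 0.0999). *Pde12*, a mitochondrial RNA exonuclease, had a log2 fold change of 0.26 (limma adjusted p = 0.0619). *Pde4dip*, known as myomegalin and a scaffold of the Golgi and centrosome, had log2 fold changes of 0.24 and 0.85 on its 2 rows, neither of them called (limma adjusted p = 0.189 and 0.119).

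The cAMP-specific phosphodiesterases summed to 87.2 ± 5.76 FPKM in transgenic mice, against 56.3 ± 3.49 FPKM in wild-type mice (SD, n = 3), a ratio of 1.55. With the enzymes that split both nucleotides added, the sum was 202 ± 15.4 and 172 ± 11.6 FPKM, a ratio of 1.17, and the genotypes still did not overlap. *Pde8a* held 35.8% ± 3.22 of the cAMP-specific sum in wild-type and 49.7% ± 0.3002 in transgenic mice. Within the wider sum, *Pde3b* held the largest share in both genotypes, 39.0% ± 4.09 in wild-type and 31.4% ± 1.47 in transgenic mice. Among the PDE4 genes, the share of *Pde4a* was 26.4% ± 5.05 in wild-type and 38.6% ± 3.32 in transgenic mice, and that of *Pde4b* was 36.2% ± 6.74 and 19.6% ± 4.39.

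The other 14 rows did not pass the filter, and no value among them exceeded 0.896 FPKM. They are *Adcy1*, *Adcy2*, *Adcy8*, *Adcyap1*, *Pde1c*, *Pde4c*, *Pde6a*, *Pde6b*, *Pde6c*, *Pde6g*, *Pde6h*, *Pde8b*, *Pde10a* and *Pde11a*, several of them known from brain or retina. *Adcyap1* and *Pde6c* were listed at 0 in every mouse. Every transgenic mouse was above every wild-type mouse for 4 of these rows (*Adcy1*, *Pde10a*, *Pde11a* and *Pde6g*) and below for 0, with no test. The same held for 3.77% and 5.03% of all 7753 loci under the filter, which include loci at 0 in every mouse.

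Promoters of 6 of the 9 called genes are shown because genes of cAMP signalling can themselves answer to CREB, the factor that PKA phosphorylates and that binds the cAMP response element (CRE). RefSeq windows (GRCm38.p6, the build called mm10) from 250 bases before to 50 bases after a start were given for 34 of the 43 symbols, as 73 windows. The full CRE, TGACGTCA, was in 2 of the 73 windows, which overlap and belong to *Prkar1a*, and in 1.79% of all 32851 windows. Its core TGACG, searched on both strands and contained in each full CRE, was in 18 of the 73 windows (24.7%, against 20.8% of all windows). The core was present for 4 of the 7 genes called higher, for 0 of the 2 called lower and for 8 of the 15 uncalled genes that have a window. These are counts of genes, which can have several windows, so the share of all windows is no background for them. The DR1 repeat bound by PPAR and RXR, 2 copies of AGGTCA with 1 base between them, was in 0 of the 73 windows and in 0.0396% of all windows. A match is a description of letters and shows no binding. The stretches below lie within the 250 bases before a RefSeq start and outside the exons that GENCODE gives the gene. They run 5′ to 3′ on the strand of the gene, and have the core or its complement CGTCA in capitals. The first 4 are the higher genes with the core. *Prkar2b* is 1 of 3 higher genes without it and *Adcy5* 1 of 2 lower genes, and *Adcy3*, *Pde4d* and *Pde1b*, also without it, are not printed. The *Pde4a* stretch precedes a start inside the span of the gene. In the expression table, the loci of *Prkaca* and *Adcy9* take in their whole stretches, and those of *Pde8a* and *Prkar2b* a part.
Prkaca (chr8:83972848-83972977, + strand): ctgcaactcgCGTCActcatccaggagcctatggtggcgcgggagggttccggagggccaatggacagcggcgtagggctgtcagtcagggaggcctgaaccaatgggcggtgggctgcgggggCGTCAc
Pde8a (chr7:81213135-81213264, + strand): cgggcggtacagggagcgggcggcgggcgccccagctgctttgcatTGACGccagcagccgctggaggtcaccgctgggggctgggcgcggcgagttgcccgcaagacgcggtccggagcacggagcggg
Pde4a (chr9:21183971-21184100, + strand): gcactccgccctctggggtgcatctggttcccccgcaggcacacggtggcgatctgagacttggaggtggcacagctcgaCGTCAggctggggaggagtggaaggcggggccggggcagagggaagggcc
Adcy9 (chr16:4420499-4420628, - strand): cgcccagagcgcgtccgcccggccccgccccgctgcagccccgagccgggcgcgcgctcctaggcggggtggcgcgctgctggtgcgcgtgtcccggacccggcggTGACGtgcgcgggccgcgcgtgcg
Prkar2b (chr12:32061297-32061407, - strand): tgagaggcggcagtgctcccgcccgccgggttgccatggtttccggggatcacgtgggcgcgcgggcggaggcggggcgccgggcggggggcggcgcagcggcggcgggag
Adcy5 (chr16:35154734-35154863, + strand): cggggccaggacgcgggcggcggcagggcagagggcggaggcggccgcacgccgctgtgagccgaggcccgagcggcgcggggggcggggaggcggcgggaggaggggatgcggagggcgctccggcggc

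For comparison, the full CRE of *Prkar1a*, a regulatory subunit gene that was not called, is shown in capitals with 10 bases on each side.
Prkar1a (chr11:109650890-109650917, + strand): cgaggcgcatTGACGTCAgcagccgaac

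Other genes of the cAMP pathway were called in both directions. The list of 86 genes holds G protein subunits, receptors, anchoring proteins and other partners, of which 84 were in the table and 57 loci were tested. Of these, 12 were called higher (21.1%, against 11.6% of all tested loci) and 7 lower (12.3%, against 7.03%), and the median log2 fold change was 0.01. The counts were 7 to 10 higher and 3 to 6 lower with 1 mouse left out (7 higher without transgenic mouse 3 or wild-type mouse 2 or 3, and 3 or 4 lower without any 1 mouse but transgenic mouse 2), and 6 and 3 with no filter. Of the 57 loci, *Mc5r*, *Adra2a* and *Adora2b* passed the filter through wild type alone, and *Mc5r* is among the 7 lower, which are 6 with a filter on the mean of all mice. Among the 5 tested G protein α subunits, 2 rose (against 11.6% of all tested loci) and 1 fell (against 7.03%). *Gnao1*, of the inhibitory Gi/o family, was at 7.89, 7.81 and 8.93 FPKM in transgenic mice, against 1.82, 1.98 and 2.01 FPKM in wild-type mice (log2 fold change 1.65, limma adjusted p = 0.000231). *Gnai1*, which inhibits cyclases, fell from 55.1 ± 4.09 to 26.4 ± 0.732 FPKM (SD, n = 3 each, log2 fold change -1.03, limma adjusted p = 0.000715). *Gnas*, the stimulatory subunit, was at 1007 ± 30.2 FPKM in transgenic mice, against 741 ± 66.8 FPKM in wild-type mice (log2 fold change 0.45, limma adjusted p = 0.0458), a call lost in 9 of 14 settings, including with any 1 mouse left out.

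Of 17 tested receptors, 2 rose (11.8%, against 11.6% of all tested loci) and 5 fell (29.4%, against 7.03%), with *Mc5r* among the 5. *Adrb1*, the β1-adrenergic receptor, was at 8.598, 5.62 and 3.94 FPKM in transgenic mice, against 1.80, 1.81 and 1.34 FPKM in wild-type mice (log2 fold change 1.36, limma adjusted p = 0.00971). *Adora1*, an adenosine receptor that lowers cAMP, rose from 23.0 ± 5.66 to 61.2 ± 14.6 FPKM (SD, n = 3 each, log2 fold change 1.37, limma adjusted p = 0.00831). Both calls were lost when all loci were tested (limma adjusted p = 0.0615 for *Adrb1* and 0.0564 for *Adora1*). *Tshr*, the thyrotropin receptor, fell from 54.5 ± 3.05 to 17.4 ± 4.20 FPKM (SD, n = 3 each, log2 fold change -1.62, limma adjusted p = 0.00134). *Adrb3*, the β3-adrenergic receptor of adipocytes, was named after its values were seen. It was at 101, 127 and 74.2 FPKM in transgenic mice, against 168, 157 and 159.7 FPKM in wild-type mice (log2 fold change -0.71, limma adjusted p = 0.0384), a call lost in 7 of 14 settings, among them without transgenic mouse 1 or 3 and without any 1 wild-type mouse.

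Of 10 tested loci of A-kinase anchoring proteins, which hold PKA at sites in the cell, 4 rose (against 11.6% of all tested loci) and 0 fell (against 7.03%). *Akap1*, which anchors PKA at the outer mitochondrial membrane, rose from 30.4 ± 4.49 to 80.4 ± 7.53 FPKM (SD, n = 3 each, log2 fold change 1.38, limma adjusted p = 0.00110). *Opa1*, a mitochondrial fusion protein that also anchors PKA at lipid droplets, rose from 18.9 ± 1.11 to 34.6 ± 3.57 FPKM (SD, n = 3 each, log2 fold change 0.84, limma adjusted p = 0.00242). Of the 4, *Akap7* and a locus that merges *Akap2* with *Palm2* were called near the threshold (limma adjusted p = 0.0455 and 0.0421). Their alternative settings were not examined singly. Of 5 lipolysis proteins that PKA acts on or that partner them, 1 rose (against 11.6% of all tested loci) and 0 fell (against 7.03%). The 1 that rose was *Plin5*, from 7.85 ± 2.29 to 48.4 ± 6.17 FPKM (SD, n = 3 each, log2 fold change 2.50, limma adjusted p = 0.000665). *Abcc4*, which exports cAMP, rose from 3.01 ± 0.223 to 4.67 ± 0.129 FPKM (SD, n = 3 each, log2 fold change 0.50, limma adjusted p = 0.009998).

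Of 9 CREB factors and coactivators, 0 rose and 1 fell at an adjusted p under 0.05 (limma), against 11.6% and 7.03% of all tested loci. The 1 that fell was *Crtc3*, with 6.07 ± 0.464 FPKM in transgenic mice, against 7.84 ± 0.318 FPKM in wild-type mice (SD, n = 3, log2 fold change -0.32, limma adjusted p = 0.0372). *Popdc2*, a cAMP-binding membrane protein, was the 1 of 3 other tested effectors that rose (log2 fold change 0.76, limma adjusted p = 0.0188), and *Ppp2ca*, a catalytic subunit of protein phosphatase 2A, was the 1 of 4 phosphatase genes that rose (log2 fold change 0.40, limma adjusted p = 0.0335). Beside the counts of these 2 short lists, 11.6% of all tested loci were called higher. The calls of *Crtc3* and *Ppp2ca* were each lost in 7 and that of *Popdc2* in 4 of 14 settings. The 2 tested PKA inhibitor genes were not called.

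**Figure D4:**
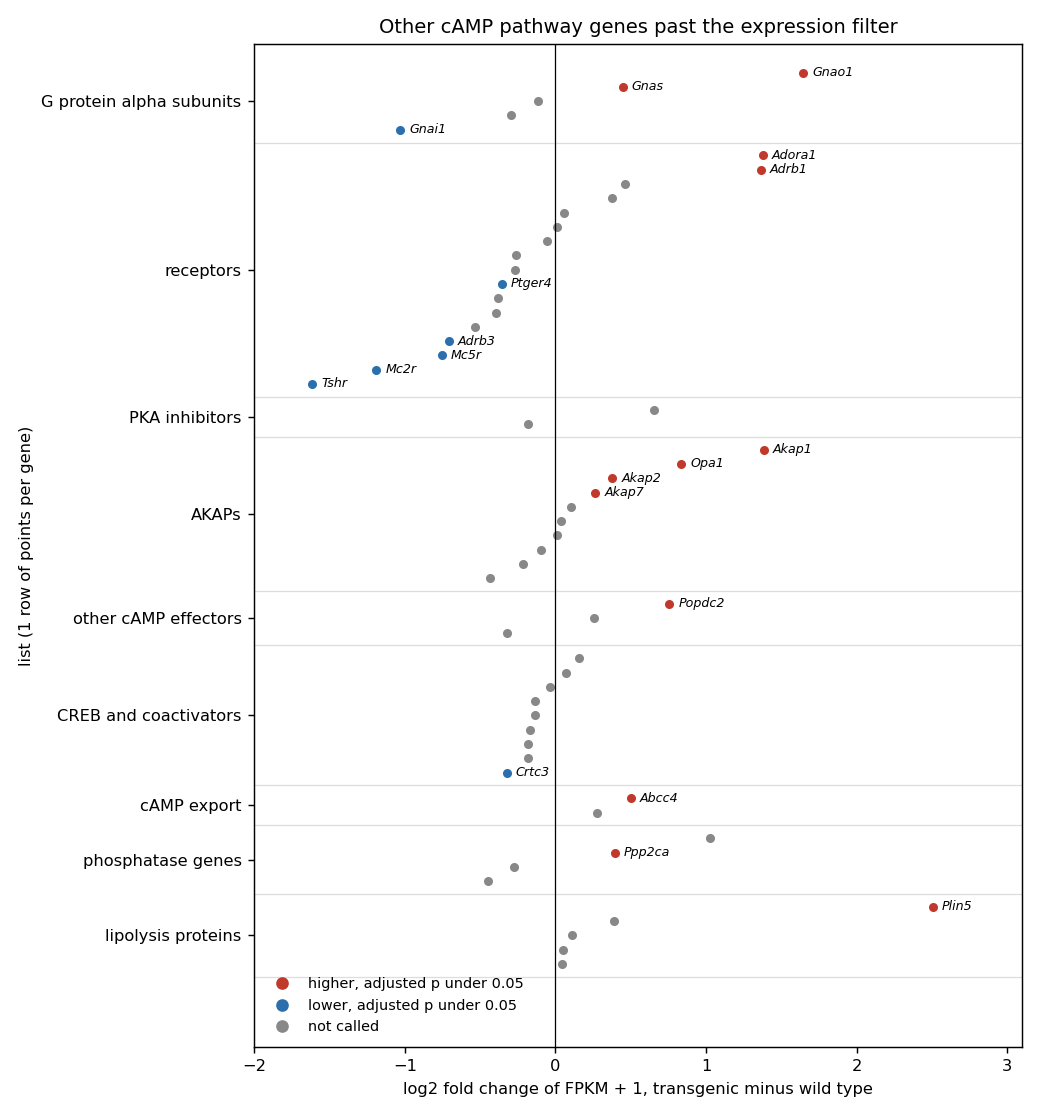
The log2 fold change of FPKM + 1, transgenic minus wild type, of the 57 tested loci of other cAMP pathway genes, 1 point per locus and grouped by list, with the called loci named. Red points (12, called higher) reach 2.50 for *Plin5*, and blue points (7, called lower) reach -1.62 for *Tshr*.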

How the data were processed

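iWAT RNA of 3 *Hlx* transgenic and 3 wild-type littermate mice was sequenced with TruSeq v2 libraries, which do not mark strand, as single-end reads. The authors mapped the reads to mm10 and deposited FPKM per gene and mouse. The submitters' processing notes name CASAVA 1.8.2, TopHat2 2.0.9, Bowtie2 2.1.0 and Cufflinks 2.2.1, and the annotation is not given in the sources used here. Counts were not used, so FPKM were tested on a log scale and no count test was run.

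log2(FPKM + 1) of 11692 loci (mean FPKM over 1 in at least 1 genotype) was fitted in R 4.3.3 by limma 3.58.1 (lmFit and a trended eBayes, two-sided, with genotype as the sole term and Benjamini-Hochberg adjustment), after a test on simulated data. Groups came from the labels, and replicate numbers name mice. Gene positions and exons came from GENCODE release 21 on mm10. Figures used matplotlib 3.10.9 in Python 3.11.15.

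The genes and lists were chosen with earlier results of these data known. Values per mouse are given for called genes and the highest gene of each role. Pathway genes are named if called and among the 3 largest absolute log2 fold changes of their list. *Adrb3*, *Akap2*, *Akap7* and genes named for the filter are exceptions. Alternatives were a pseudocount of 0.1, no filter, a filter on the mean of all mice, quantile or median-ratio scaling, a block for the replicate number, no trend, weights for sample quality, leaving out each mouse and an adjusted p under 0.01. The alternatives of single pathway genes were added after seeing the data.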

Additional observations from a re-analysis of the deposited data

How the results depend on the processing

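The calls of *Adcy3*, *Adcy9*, *Prkar2b*, *Pde4a*, *Pde4d* and *Pde8a* were kept in all 14 alternative settings of the fit. Over the 30 tested rows, 420 alternative values gave 397 of the same direction and side of the threshold, 10 that lost the call, 1 that gained it (*Pde4dip*, second row, with sample quality weights) and 12 that turned direction, and the cause was not tested. The number of cyclase, PKA and phosphodiesterase rows called higher was 7, and 6 to 7 with 1 mouse left out. The number called lower was 2, and it was 0 with no filter (limma, where 4 had an unadjusted p under 0.05), 1 with the replicate block, 1 at an adjusted p under 0.01 and 1 to 2 with 1 mouse left out. Pathway loci called higher were 12, and 6 with no filter, 7 at an adjusted p under 0.01 and 7 to 10 with 1 mouse left out. Pathway loci called lower were 7, and 3 with no filter, 3 with the replicate block, 3 at an adjusted p under 0.01 and 3 to 6 with 1 mouse left out.

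The directions that turned belong to genes that were not called. With quantile normalization the log2 fold change was -0.049 for *Prkar1a* and 0.0028 for *Pde3a*, and with sample quality weights it was 0.043 for *Pde3a* and 0.00052 for *Pde3b*. With 1 mouse left out it ran from -0.055 to 0.16 for *Prkar1b*, from -0.080 to 0.17 for *Pde1a*, from -0.18 to 0.085 for *Pde3a* and from -0.21 to 0.0052 for *Pde3b*. Over all loci, 1352 were higher and 822 lower, against 748 and 381 with no filter, and with 1 mouse left out from 780 (wild-type mouse 3) to 1295 higher and from 329 (transgenic mouse 3) to 906 lower.

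Same-numbered mice of the 2 genotypes had correlated deviations of 0.0129, 0.0344 and 0.0701 over 11692 loci, and no transgenic mouse correlated best with its own number. Deviations from means of 3 mice constrain each other and these values are weak. Whether the numbers pair the mice cannot be decided from them. The absolute depth is unknown and the relative depths are rough, so how far low FPKM values differ in precision between mice is not known.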

Other observations

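Within the transgenic mice, mouse 1 had the highest summed brown adipocyte markers, at 7930 FPKM, and also the highest value of each of the 7 called genes that rose (*Adcy3*, *Adcy9*, *Prkaca*, *Prkar2b*, *Pde4a*, *Pde4d* and *Pde8a*). The same mouse had the highest transgenic value at 77.7% of the 1352 loci called higher over the whole table. Within the wild-type mice, mouse 1 had the highest brown adipocyte markers, at 1050.5 FPKM, and the highest value of 4 of the 7 genes (*Adcy3*, *Prkaca*, *Prkar2b* and *Pde4a*), against 55.9% of the 1352 loci. These are descriptions of 3 mice each, with no test.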
